A study of Mus musculus with 7 samples.

Results

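Chromatin accessibility was examined at 9 genes of cellular senescence and the p53 pathway: Trp53, Mdm2, Cdkn1a, Gadd45a, Gdf15, Cdkn2a, Cdkn2b, Ccnd1 and Lmnb1. Their regions were those of the count table that overlapped the gene body or lay within 10 kb of it, which gave 26 of 55680 regions. They are 9 of the 28925 annotated genes that had a region within this distance. The measurements are ATAC-seq, in which a transposase inserts sequencing adapters into exposed DNA, on nuclei from whole liver of male C57BL/6N mice. Young liver came from mice of 3 months (3 samples) and aged liver from mice of 18 months (4 samples), with no treatment in either group. By the design text the aged samples came from 3 animals, as 1 animal was sampled in 2 lobules, and the labels do not say which samples these were. Reads counted in regions summed to 10384725, 25461110 and 5709327 in young replicates 1 to 3, and to 11717992, 5108283, 4474652 and 8397956 in aged replicates 1 to 4. Accessibility is given as CPM, the reads in a region relative to the reads in all regions of the library, with TMM scaling.

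The p53 protein is kept scarce by Mdm2, a ubiquitin ligase whose own gene p53 activates. When DNA is damaged p53 is stabilized and switches on Cdkn1a, which halts the cell cycle, along with Gadd45a and other targets. Senescent cells stay arrested through Cdkn1a and the Ink4 inhibitors Cdkn2a and Cdkn2b, which act against the cyclin D kinases, and they commonly lose lamin B1. In liver, hepatocytes are mostly quiescent and re-enter the cycle after injury, with cyclin D1 as a main driver of that step.

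In aged liver the Ccnd1 promoter was 2.44-fold less accessible, a second region upstream of Ccnd1 was 2.05-fold less accessible, and a region downstream of Mdm2 was 5.45-fold less accessible. These were the 3 of 26 regions with a decrease at an adjusted p under 0.05, against 3.30% of all regions. In the lowest of 10 groups of regions by mean log2 CPM, which holds the Mdm2 region, 9.91% were called lower. None of the 26 passed for an increase with edgeR (0 regions, against 2.44% of all regions). Without adjustment, 6 regions had a p under 0.05 with an increase and 6 with a decrease, against 11.9% and 12.7% of all regions. DESeq2 called 3 regions higher (4.96% of all regions, 11.5% of gene promoters), the promoters of Gadd45a, Cdkn2b and Lmnb1. With limma voom 2 were called (3.95% of all regions, 8.99% of gene promoters), those of Gadd45a and Cdkn2b. Each of these tools called 3 regions lower (3.47% and 4.28% of all). With offsets fitted on GC content 6 were higher, the promoters of Trp53, Gadd45a, Gdf15, Cdkn2b and Lmnb1 and an intron of Lmnb1, when 9.83% of all regions and 25.4% of gene promoters were called higher. The count of increases was 1 without young replicate 3 or aged replicate 4 (Gadd45a promoter) and without aged replicate 2 (Cdkn1a promoter). The count of decreases was 0 without young replicate 1, and 1 without aged replicate 1, without aged replicate 3 or with offsets fitted on mean abundance (0.984% of all regions). Calls were lost over the whole table in those fits too, where 0.239%, 0.490% and 0.853% of all regions were lower without young replicate 1, aged replicate 1 and aged replicate 3. Of all regions 1.90%, 2.93% and 2.61% were higher without young replicate 3, aged replicate 4 and aged replicate 2. A change in the share of a cell type and a change in accessibility per cell cannot be told apart in whole tissue.

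The promoters of these genes lay mostly above 0 and their other regions mostly below. A promoter region was the most accessible region within 200 bp of an annotated transcription start site (TSS) of the gene, and each of the 9 genes had one. At 7 of the 9 promoters the log2 fold change (aged over young) was above 0, with a median of 0.29, while the 16593 gene promoters of the table had a median of 0.12 and 65.3% above 0. Of the 9, only the Ccnd1 promoter passed the threshold (1 lower, 0 higher), against 4.92% of gene promoters higher and 1.77% lower. Among the 17 regions outside these promoters, 13 were below 0, beside 59.0% of the regions of the table at no promoter. Their median of -0.37 stayed below 0 under every alternative, but was -0.17 without aged replicate 1, -0.24 without young replicate 1 and -0.21 with offsets fitted on GC content. Those 40258 regions had a median of -0.091, with 1.66% called higher and 3.78% lower. Every aged sample was above every young one at 4 of the 9 promoters (Trp53, Gadd45a, Cdkn2b and Lmnb1), against 23.2% of gene promoters, and in none of the 17 other regions, against 10.2% of all regions. Every aged sample was below every young one in 6 of the 26 regions, 3 near Mdm2 and 3 near Ccnd1, against 11.6% of all regions. Of these only 1, at Ccnd1, was a promoter, against 8.19% of gene promoters.

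The balance of increases and decreases over all regions moved with the scaling of the libraries. With TMM 1360 regions were called higher and 1838 lower, so that 42.5% were higher. That share was 52.6% with the size factors of DESeq2, 58.8% with DESeq2 itself, 73.7% with offsets fitted on GC content and 15.6% with total counts. Total counts moved the median over the whole table by -0.12 and the GC offsets moved it by 0.10. The median of the 9 promoters was 0.17 with total counts and 0.36 with the GC offsets, both with 7 of 9 above 0. Relative to the median of all regions the promoter median was 0.33 with TMM, 0.32 with total counts and 0.29 with the GC offsets. Offsets fitted on mean abundance, which remove any trend of the change with the level of a region, gave a promoter median of 0.013. With them 5 of 9 were above 0, and Mdm2 and Gdf15 joined Cdkn2a and Ccnd1 below it.

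**Figure D1:**
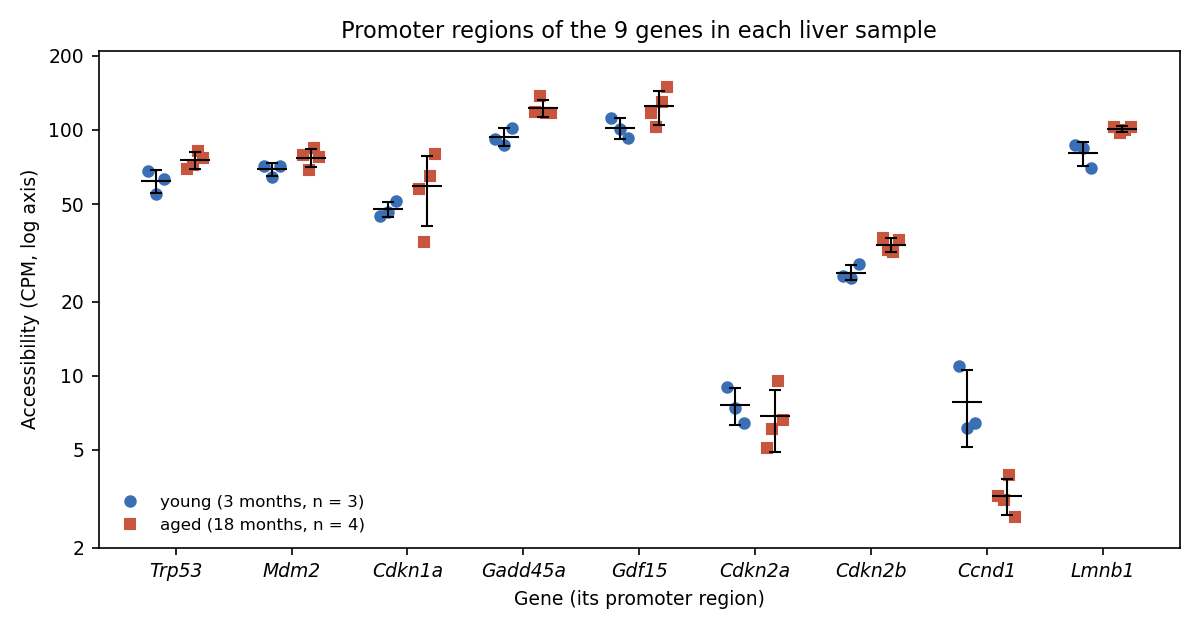
Accessibility (CPM, log axis) of the promoter region of each of the 9 genes, in order of role, in 3 young samples (circles) and 4 aged samples (squares), with black bars for the mean and SD of each age. At Ccnd1 the aged samples lie between 2.67 and 3.97 CPM and the young ones between 6.16 and 11.02 CPM, while at Cdkn1a the aged samples spread from 34.9 to 79.8 CPM around the young ones.

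Trp53, which encodes p53, had a single region, on chromosome 11 from 69579024 to 69581773 (GRCm38), covering its main start and that of the divergent gene Wrap53. It held 68.2, 54.7 and 63.3 CPM in young replicates 1 to 3 and 69.1, 72.4, 82.4 and 77.1 CPM in aged replicates 1 to 4. The ages did not overlap, with aged replicate 1 and young replicate 1 nearly level. The means were 62.1 ± 6.85 CPM (SD, n = 3) and 75.3 ± 5.78 CPM (SD, n = 4). This log2 fold change of 0.28 (SE 0.12) did not pass with edgeR (adjusted p = 0.155). With offsets fitted on GC content it did (0.0176, range over alternatives 0.0176 to 0.970).

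Mdm2, the ubiquitin ligase that limits p53, had 5 regions on chromosome 10. Its promoter region, from 117708915 to 117711912, covers 7 of its 8 annotated starts and is the widest of the 26 at 2998 bp. The young samples held 71.5, 64.5 and 71.7 CPM and the aged samples 78.9, 68.4, 84.3 and 77.4 CPM. Aged replicate 2 lay within the young range and the other aged samples above it. The log2 fold change was 0.16 (SE 0.11, adjusted p = 0.390 from edgeR), and offsets fitted on mean abundance turned it to -0.12.

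A region downstream of Mdm2, from 117681140 to 117681588, lies past the end of the gene, 29170 bp from its start, and inside the body of its neighbour Cpm, a carboxypeptidase gene. It held 4.35, 2.68 and 1.32 CPM in young samples and 0.527, 0.392, 0.233 and 0.764 CPM in aged samples. The aged samples lay below every young one, and the young samples themselves were spread widely. The means were 2.78 ± 1.52 CPM (SD, n = 3) and 0.479 ± 0.224 CPM (SD, n = 4), or -2.45 on the log2 scale (SE 0.48, adjusted p = 0.0151 from edgeR). These levels rest on 8 to 71 reads in young and 1 to 6 reads in aged libraries. The call was lost without young replicate 1 (adjusted p = 0.0744), young replicate 2 (0.0568), aged replicate 1 (0.0585) or aged replicate 3 (0.0533). With offsets fitted on mean abundance the log2 fold change was -1.99 (0.0519), and the range over alternatives was 0.00404 to 0.0744.

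In 2 more Mdm2 regions the ages did not overlap, though neither passed the threshold with edgeR and TMM. A region at the 3′ end of the gene, from 117688202 to 117688967, held 5.74, 4.61 and 4.60 CPM in young and 3.16, 2.94, 4.202 and 1.78 CPM in aged samples (log2 fold change -0.76, adjusted p = 0.131 from edgeR). An intronic region, from 117703594 to 117704060, held 3.15, 4.16 and 4.28 CPM in young and 2.46, 1.57, 1.87 and 1.40 CPM in aged samples (-1.04, adjusted p = 0.0591). The latter passed with total counts (0.0411) and with offsets fitted on GC content (0.0300), over a range of 0.0300 to 0.355. Both are thinly covered, with at most 36 reads in any aged library. The upstream region, from 117717458 to 117719148, was level between the ages at 24.8 ± 0.561 CPM (SD, n = 3) and 25.1 ± 1.52 CPM (SD, n = 4, log2 fold change 0.018). Across Mdm2 the promoter was thus on the other side of 0 from the 3 regions in or past the gene body, except with offsets fitted on mean abundance.

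Cdkn1a encodes p21, the kinase inhibitor through which p53 arrests the cell cycle. Its single region, on chromosome 17 from 29093483 to 29095723, covers its starts at 29093769 and 29093781, 2507 bp from the first annotated start and 2177 bp from the last, together with the unclassified transcript AC167363.2. It held 44.7, 46.6 and 51.5 CPM in young samples and 57.5, 34.9, 65.1 and 79.8 CPM in aged samples. Aged replicates 1, 3 and 4 were above every young sample and aged replicate 2 was below every young sample. The aged SD was 18.7 CPM around a mean of 59.3 CPM (n = 4), against 3.49 CPM around 47.6 CPM (n = 3) in young liver. The log2 fold change of 0.33 (SE 0.20) did not pass with edgeR (adjusted p = 0.327). Without aged replicate 2 it was 0.51 (adjusted p = 0.0495, range over alternatives 0.0495 to 0.853).

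Gadd45a, a stress sensor that binds PCNA and the kinase Map3k4, had with Cdkn2b the highest promoter log2 fold change of the 9 genes with edgeR. Its promoter region, on chromosome 6 from 67035623 to 67037703, covers all 7 annotated starts and a start of the noncoding E230016M11Rik. It held 92.1, 86.9 and 102.1 CPM in young samples and 118.8, 136.9, 116.7 and 117.2 CPM in aged samples. The ages did not overlap, and aged replicate 2 stood above the other aged samples. The means were 93.7 ± 7.75 CPM (SD, n = 3) and 122.4 ± 9.70 CPM (SD, n = 4), and the difference of 0.39 on the log2 scale (SE 0.11) just missed the threshold with edgeR (adjusted p = 0.0548). It passed under 7 of 25 alternatives, among them DESeq2 (0.0133), limma voom (0.0272), offsets fitted on GC content (0.0110), and edgeR without young replicate 3 (0.0395) or without aged replicate 4 (0.0497). Offsets fitted on mean abundance gave 0.055 (0.878, the upper end of the range from 0.0110). Downstream of Gadd45a, a region at 67027689 had a log2 fold change of 0.22 and a region at 67028848 of -0.58, neither of which passed.

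Gdf15 encodes a circulating stress cytokine that p53 and the integrated stress response both induce. Its promoter region, on chromosome 8 from 70629656 to 70632545, spans nearly the whole gene and held 112.0, 100.9 and 92.7 CPM in young samples and 117.1, 103.2, 130.0 and 149.4 CPM in aged samples. Aged replicate 2 lay inside the young range and the other aged samples above it. The log2 fold change was 0.29 (SE 0.13, adjusted p = 0.188 from edgeR). It passed only with offsets fitted on GC content (0.0380, range over alternatives 0.0380 to 0.823) and was -0.054 with offsets fitted on mean abundance. Upstream regions at 70634113 and 70636933 had log2 fold changes of 0.20 and -0.19, with overlapping ages.

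Cdkn2a encodes p16Ink4a and p19Arf from separate starts, and Cdkn2b beside it encodes p15Ink4b. The single Cdkn2a region, on chromosome 4 from 89294612 to 89295593, covers the upstream start, which is that of p19Arf. Its levels were low in every sample, 8.98, 7.41 and 6.41 CPM in young and 5.10, 6.08, 9.57 and 6.62 CPM in aged liver. The ages overlapped, with aged replicate 3 highest and aged replicate 1 lowest of the 7 samples (log2 fold change -0.20, SE 0.25, adjusted p = 0.667 from edgeR). Over alternatives the log2 fold change ranged from -0.37 to -0.020 and never passed (adjusted p from 0.415 to 0.980). The downstream start at 89282192, that of p16Ink4a, lies 12420 bp from the nearest region, so the accessibility of the p16Ink4a promoter was not compared between the ages.

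The Cdkn2b promoter region, from 89310433 to 89311341, was more accessible per kb than that of Cdkn2a in every sample. It held 25.55, 25.0 and 28.4 CPM in young samples and 36.5, 32.6, 32.0 and 35.6 CPM in aged samples. All aged samples were above all young ones, with little spread at either age. The means were 26.3 ± 1.86 CPM (SD, n = 3) and 34.2 ± 2.22 CPM (SD, n = 4), or 0.39 on the log2 scale (SE 0.12, adjusted p = 0.0732 from edgeR). It passed with DESeq2 (0.0450), limma voom (0.0439) and offsets fitted on GC content (0.0416), over a range of 0.0416 to 0.303. With offsets fitted on mean abundance the log2 fold change was 0.26, the largest of the 9 promoters under that scaling.

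Ccnd1 encodes cyclin D1, which carries cells out of quiescence with Cdk4 and Cdk6 and is a target of Wnt and growth factor signals. It had 6 regions on chromosome 7, and all 6 log2 fold changes were below 0 with edgeR, from -0.070 to -1.29. The promoter region, from 144939583 to 144939876, is only 294 bp wide, lies inside the first exon and has its nearer edge 49 bp from the gene start. It held 11.02, 6.16 and 6.41 CPM in young samples and 3.25, 3.14, 3.97 and 2.67 CPM in aged samples. All aged samples were below all young ones, and young replicate 1 was well above the other young samples. The means were 7.86 ± 2.73 CPM (SD, n = 3) and 3.26 ± 0.536 CPM (SD, n = 4), from 39 to 163 reads in young and 16 to 37 in aged libraries. Accessibility fell by 1.29 on the log2 scale (SE 0.28, adjusted p = 0.0212 from edgeR). Without young replicate 1 the log2 fold change was -0.96 (0.118), and the call was also lost without aged replicate 1 (0.0670) or aged replicate 3 (0.0534). Offsets fitted on mean abundance gave -1.05 (0.0788). With promoters widened to 1000 bp around a start the promoter became the exonic region at 144937607, which did not pass (range over alternatives 0.00556 to 0.130).

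The region upstream of Ccnd1 from 144942645 to 144943688, 2720 bp from the gene start, had the smallest adjusted p of the 26 regions. It held 18.0, 14.4 and 16.4 CPM in young samples and 8.61, 9.02, 6.30 and 7.38 CPM in aged samples. The ages were far apart, since the highest aged sample was well below the lowest young one. The means were 16.3 ± 1.79 CPM (SD, n = 3) and 7.83 ± 1.23 CPM (SD, n = 4), from 100 to 381 reads in young and 27 to 98 in aged libraries. Accessibility fell by 1.04 on the log2 scale (SE 0.19, adjusted p = 0.0120 from edgeR). The call was lost only without young replicate 1 (-0.95, adjusted p = 0.0665) among 23 alternatives, over a range of 0.000523 to 0.0665. Offsets fitted on mean abundance left it at -0.97 (0.0239).

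The other Ccnd1 regions differed less. An exonic region from 144937607 to 144937890 held 8.05, 5.896 and 5.59 CPM in young and 4.83, 3.73, 4.67 and 3.44 CPM in aged samples. The ages did not overlap there, but it did not pass (log2 fold change -0.64, adjusted p = 0.130 from edgeR). A region between the promoter and the called upstream region, from 144941358 to 144942418, and an exonic region at 144933417 had log2 fold changes of -0.42 and -0.37 with overlapping ages. The most accessible region, from 144927484 to 144929930, lies just past the 3′ end of Ccnd1 in its neighbour LTO1. It held 72.3, 68.0 and 59.0 CPM in young and 74.9, 61.6, 68.9 and 48.4 CPM in aged samples, with the ages interleaved (-0.070, adjusted p = 0.804). Its sign turned with offsets fitted on GC content, without aged replicate 4 and with the replicate block.

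**Figure D2:**
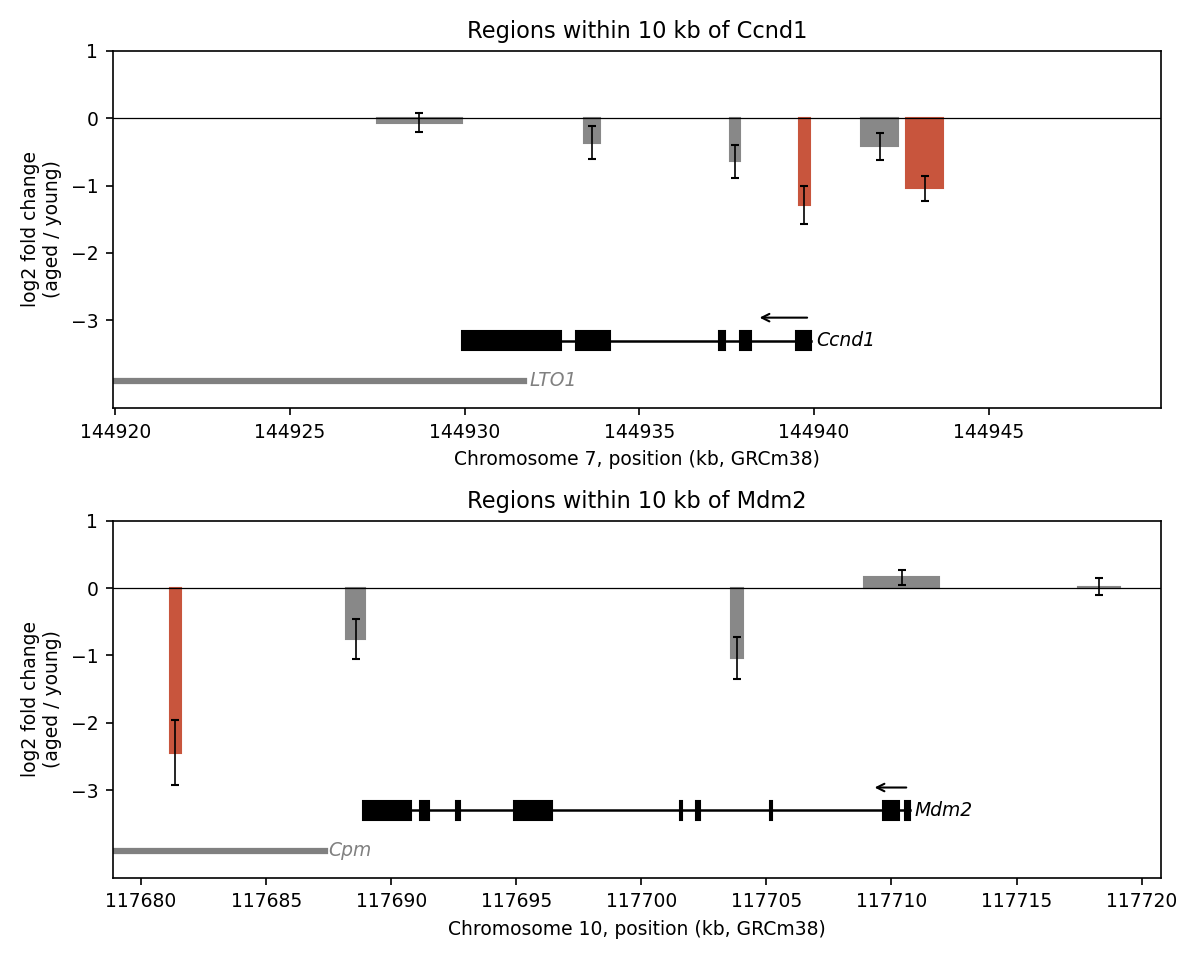
Log2 fold change (aged over young, bars, with SE as whiskers) of each region within 10 kb of Ccnd1 (top) and Mdm2 (bottom) against position on GRCm38 in kb, with exons in black, the neighbour gene in grey and regions at an adjusted p under 0.05 in red. All 6 Ccnd1 regions lie below 0 and 2 of them are red, and at Mdm2 the region of largest decrease (-2.45) lies past the end of the gene.

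Lmnb1 encodes lamin B1 of the nuclear lamina, the loss of which is a common marker of senescent cells. Its promoter region, on chromosome 18 from 56707373 to 56709262, held 86.8, 84.2 and 69.9 CPM in young samples and 103.0, 97.1, 100.4 and 103.1 CPM in aged samples. All aged samples were above all young ones, and the 4 aged values lay close together. The means were 80.3 ± 9.11 CPM (SD, n = 3) and 100.9 ± 2.82 CPM (SD, n = 4), or 0.33 on the log2 scale (SE 0.11, adjusted p = 0.0890 from edgeR). It passed with DESeq2 (0.0482) and with offsets fitted on GC content (0.00884), over a range of 0.00884 to 0.932, and was 0.023 with offsets fitted on mean abundance. An intronic region at 56715249 was 0.35 higher on the log2 scale (adjusted p = 0.165), with 3 of 4 aged samples above the young ones. Introns at 56720010 and 56727223 and a downstream region at 56755933 had values from -0.43 to -0.084 with overlapping ages.

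The change with age followed the abundance of a region across the whole table. When all regions were ranked by mean log2 CPM and split into 10 equal groups (deciles), the median log2 fold change went from -0.42 in decile 1 to 0.28 in decile 10. The promoters of Trp53, Mdm2, Cdkn1a, Gadd45a, Gdf15 and Lmnb1 were all in decile 10, so that their log2 fold changes of 0.16 to 0.39 stood beside a median of 0.28 for regions of like abundance. Cdkn2b, in decile 9, had 0.39 beside a median of 0.16. The Ccnd1 promoter (-1.29, decile 4, median -0.19) and the called Ccnd1 upstream region (-1.04, decile 6, median -0.071) were both far below their deciles. The downstream Mdm2 region (-2.45) and the Mdm2 intron (-1.04) were in decile 1, where the median was -0.42 and 9.91% of regions were called lower. Of the 17 regions outside the promoters, 14 were below the median of their decile, and of the 9 promoters 6 were above it.

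**Figure D3:**
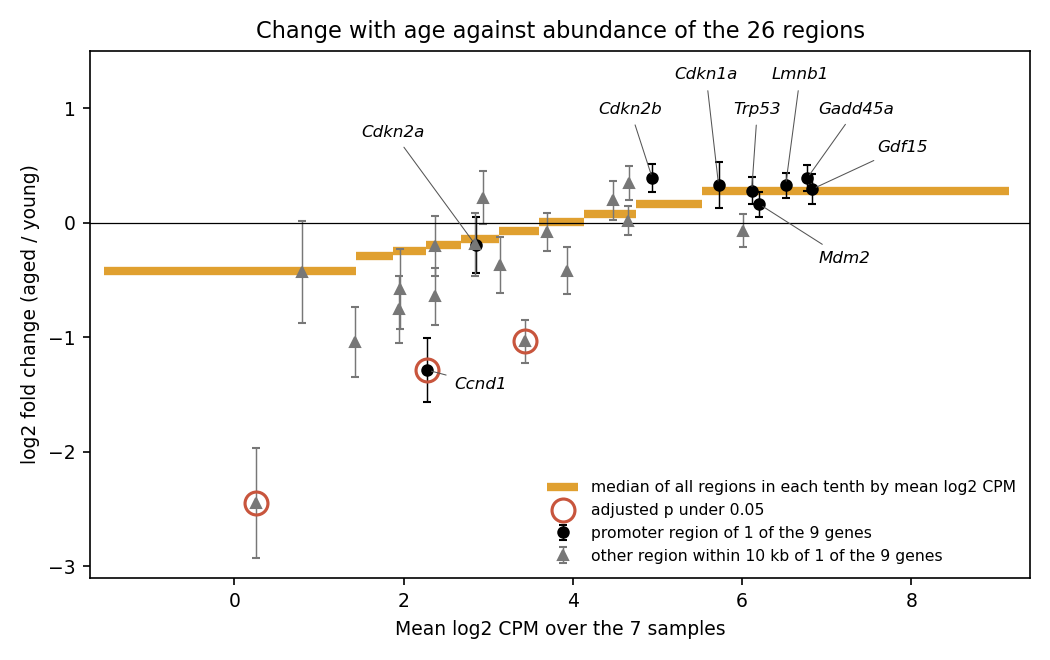
Log2 fold change (aged over young) with SE against mean log2 CPM over the 7 samples for the 9 promoter regions (black circles) and the other 17 regions (grey triangles), with red rings at an adjusted p under 0.05 and orange bars for the median of all regions in each decile of abundance. Most promoters sit close to the bar of decile 10 at 0.28, and the ringed regions lie below the bars of their deciles.

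Levels per length placed Gadd45a first and Cdkn2a last among the 9 promoters at both ages. In young liver the promoter levels per kb were 45.0 ± 3.72 CPM at Gadd45a, 42.5 ± 4.82 CPM at Lmnb1, 35.3 ± 3.35 CPM at Gdf15 and 29.0 ± 2.04 CPM at Cdkn2b (SD, n = 3). They were 26.7 ± 9.30 CPM per kb at Ccnd1, 23.1 ± 1.36 at Mdm2, 22.6 ± 2.49 at Trp53, 21.2 ± 1.56 at Cdkn1a and 7.74 ± 1.32 at Cdkn2a. Neighbours in this order overlapped between samples, except Gdf15 with Cdkn2b and Cdkn1a with Cdkn2a. In aged liver the levels per kb were 58.8 ± 4.66 CPM at Gadd45a, 53.4 ± 1.49 at Lmnb1, 43.2 ± 6.81 at Gdf15 and 37.6 ± 2.44 at Cdkn2b (SD, n = 4). Next came Trp53 at 27.4 ± 2.10, Cdkn1a at 26.5 ± 8.36, Mdm2 at 25.8 ± 2.19, Ccnd1 at 11.1 ± 1.82 and Cdkn2a at 6.97 ± 1.96 CPM per kb. The young mean of Ccnd1 rests on young replicate 1, which was well above the other young samples.

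The regions also differed in what they are made of. The 9 promoter regions had a median width of 2081 bp and a median GC content of 60.4%, against 1265 bp and 57.9% for gene promoter regions of the table. The ratio of observed to expected CpG was 0.79 at the median promoter of the 9, against 0.68. The 17 other regions had a median width of 766 bp, GC content of 50.1% and CpG ratio of 0.23, beside 737 bp, 47.6% and 0.21 for regions at no promoter. By place, 3 of 5 upstream, 3 of 4 intronic, 3 of 3 exonic and 4 of 5 downstream regions were below 0. Within the 9 genes 34 starts are annotated, 26 of them within 200 bp of a region. The other 8 were 3 starts of Cdkn1a and 1 start each of Trp53, Mdm2, Cdkn2a, Ccnd1 and Lmnb1. None of the 26 regions aligned to a second place in the genome (0 of 26).

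Further genes of the pathway were taken as 8 lists of 152 genes, of which 139 had a promoter region. Of these promoters 7 (5.04%) rose with age by edgeR, about the share of all gene promoters (4.92%), and the median log2 fold change was 0.14 beside 0.12 for all. All 7 were in decile 10 of abundance, where 11.7% of regions were called higher. Without adjustment 40 of the 139 had a p under 0.05 with an increase and 8 with a decrease, against 26.5% and 8.13% of gene promoters. DESeq2 called 18 list genes higher and limma voom 15, against 11.5% and 8.99% of gene promoters. Among 27 p53 target genes with a promoter region, 22 log2 fold changes were above 0 (median 0.23, against 65.3% of gene promoters above 0), 2 passed for an increase and 0 for a decrease, with 11 and 2 at an unadjusted p under 0.05. DESeq2 called 6 higher and 0 lower, and limma voom 4 and 1. Sesn1, which restrains mTORC1 under stress, stood at 89.7 ± 15.7 CPM in the young (n = 3, SD) against 127.5 ± 12.7 CPM in the aged samples (n = 4, SD), or 0.50 on the log2 scale (SE 0.13, adjusted p = 0.0433 from edgeR). Ddb2, a sensor of ultraviolet damage, went from 55.7 ± 7.86 to 76.0 ± 5.10 CPM (0.44, SE 0.12, adjusted p = 0.0463). Among 18 regulators of p53, 14 were above 0 (median 0.20), and Stk11, the kinase upstream of AMPK, was the 1 gene that passed with edgeR. It went from 106.4 ± 16.6 to 150.2 ± 15.7 CPM (0.49, SE 0.13, adjusted p = 0.0420). DESeq2 called 3 regulators higher and limma voom 2, and 6 increases had an unadjusted p under 0.05. No regulator passed for a decrease (0 with edgeR, DESeq2 and limma voom, and 1 at an unadjusted p under 0.05). Without a promoter region were Tnfrsf10b among the targets and Trp63 and Trp73 among the regulators.

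Of 20 RB and G1 cyclin-CDK genes, which carry out the G1 decision that p21 and the Ink4 proteins block, 13 were above 0 (median 0.11). E2f3, an E2F factor that drives S phase genes, stood at 73.4 ± 15.04 CPM in the young (n = 3, SD) against 111.2 ± 9.22 CPM in the aged samples (n = 4, SD), or 0.59 on the log2 scale (SE 0.14, adjusted p = 0.0281 from edgeR). DESeq2 and limma voom each called 2 of this list higher, and 5 increases had an unadjusted p under 0.05. For this list and those that follow, the shares of all gene promoters called higher were 4.92% with edgeR, 11.5% with DESeq2 and 8.99% with limma voom. Without adjustment 26.5% of gene promoters passed for an increase and 8.13% for a decrease, and 65.3% were above 0. None of the RB and G1 genes passed for a decrease (0 with edgeR, DESeq2 and limma voom, 1 at an unadjusted p under 0.05). All 16 nuclear lamina and envelope genes had a promoter region, and 14 were above 0 (median 0.23). Tmpo, a lamina-associated protein that binds RB, went from 75.1 ± 1.52 to 103.4 ± 6.04 CPM (0.46, SE 0.10, adjusted p = 0.0230), and Lbr, the lamin B receptor, from 56.2 ± 3.00 to 74.3 ± 6.74 CPM (0.40, SE 0.11, adjusted p = 0.0486). Both other tools called 3 lamina genes higher, and 7 increases had an unadjusted p under 0.05. No lamina gene passed for a decrease (0 with edgeR, DESeq2 and limma voom, 0 at an unadjusted p under 0.05). Of 13 GADD45 partners and stress kinases 11 were above 0 (median 0.27). Pcna, the sliding clamp of replication that both p21 and Gadd45a bind, went from 52.8 ± 4.97 to 70.7 ± 3.05 CPM (0.42, SE 0.11, adjusted p = 0.0402). Here too both other tools called 3 higher, with 6 increases at an unadjusted p under 0.05. In this list no gene passed for a decrease (0 with edgeR, DESeq2 and limma voom, 0 at an unadjusted p under 0.05). In all 7 genes that passed, every aged sample was above every young one, against 23.2% of gene promoters. These 7 were chosen by the same comparison of the ages.

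Of 27 secreted senescence factors 18 had a promoter region, and Il6, Il1b, Tnf, Ccl5, Mmp3, Mmp9, Mmp12, Igfbp5 and Timp1 had none. Of the 18, 12 were below 0 (median -0.10) and 0 passed with edgeR, while 1 increase and 3 decreases had an unadjusted p under 0.05. DESeq2 and limma voom each called 1 higher and 0 lower. The median depended on single libraries. It was -0.031, with 9 of 18 above 0, without young replicate 1, and -0.049 when aged replicate 1 was left out. Leaving out young replicate 2 or aged replicate 4 gave -0.22. Over alternatives it ranged from -0.24 to -0.015, the latter with offsets fitted on GC content. The smallest p-values were at Cxcl2, a neutrophil chemokine, with young levels of 3.81 ± 0.708 CPM (n = 3, SD) and aged levels of 1.56 ± 0.596 CPM (n = 4, SD) (log2 fold change -1.18, SE 0.33, adjusted p = 0.0533 from edgeR), and at Vegfa, with 101.0 ± 3.44 and 131.6 ± 12.5 CPM (0.38, SE 0.11, adjusted p = 0.0570). At both genes the ages did not overlap. Of gene promoters 23.2% had every aged sample above every young one and 8.19% had every aged sample below. Of 13 Polycomb genes, which silence the Ink4a and Arf promoters in young cells, 8 were above 0 (median 0.037, from 0.015 to 0.093 with 1 library left out) and 0 passed with edgeR, DESeq2 or limma voom, with 2 at an unadjusted p under 0.05. Those were Eed (0.26, adjusted p = 0.155 from edgeR) and Rnf2 (0.24, adjusted p = 0.168). Kdm6b, which was on the list but is not itself a Polycomb gene, had no promoter region. With offsets fitted on GC content Eed (adjusted p = 0.0365 from edgeR) and Rnf2 (0.0207) were called higher, as were 25.4% of gene promoters. The median of the Polycomb genes was then 0.22. Of 14 proliferation genes 8 were above 0 (median 0.020) and 0 passed with edgeR, DESeq2 or limma voom, with 2 increases and 1 decrease at an unadjusted p under 0.05. This median was below 0 without young replicate 1 (-0.017), young replicate 3 (-0.0019), aged replicate 1 (-0.022) or aged replicate 2 (-0.013). It was 0.17 with offsets fitted on GC content, with Ccnb1 and Mcm5 called higher. Ccnb2, a mitotic cyclin, had 8.79 ± 1.52 and 5.93 ± 1.01 CPM (-0.57, adjusted p = 0.140), and Mcm5, of the replicative helicase, 33.1 ± 0.977 and 40.0 ± 2.43 CPM (0.27, adjusted p = 0.150).

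The 7 calls over the lists depended on the libraries and the scaling. None of the 7 genes was called without young replicate 1, young replicate 2, aged replicate 1 or aged replicate 3, when the count over the lists was 0 by edgeR (7 with all samples). In these 4 fits only 0.0964%, 0.337%, 0.181% and 0.337% of all gene promoters were called higher, so that calls were few over the whole table. It was 3 without young replicate 3 and 4 without aged replicate 4, of which E2f3 and Tmpo were the only ones of the 7. The others were Perp in the former, and Prkdc and, lower, Cxcl2 in the latter. Without aged replicate 2 it was 12, with all 7 among them. When aged replicates 1 and 3 were summed none of the 7 was called, and with 1 and 4, 2 and 3 or 3 and 4 summed only E2f3 and Tmpo were. Ddb2 and Pcna were also lost with 1 and 2 summed. With at least 10 counts in every sample only Tmpo of the 7 was called. Thinning ended the call of Lbr (adjusted p = 0.0824 from edgeR). With offsets fitted on mean abundance, none of the 7 was called either, and the 1 gene that was, Cdk6, was lower (log2 fold change -0.60, adjusted p = 0.0266, chosen after its values were seen), as were 0.717% of gene promoters. The medians of the p53 regulators (-0.015), RB and G1 genes (-0.12), lamina genes (-0.0078), Polycomb genes (-0.045) and proliferation genes (-0.072) were then below 0, and those of the targets (0.0044) and of the GADD45 list (0.0049) near 0. With total counts only E2f3 and Tmpo of the 7 were called. Lower with them were Pmaip1 (-0.80), Cdk6 (-0.43) and Cxcl2 (-1.30), the first of these 3 named after its values were seen. Of gene promoters 1.65% were then called higher and 3.28% lower. The medians of the RB and G1 genes (-0.012), Polycomb genes (-0.082) and proliferation genes (-0.097) were below 0 with total counts. The secreted factors had a median below 0 under both (-0.15 and -0.22).

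Promoters of marker genes of liver cell types were read in the same way. All 10 hepatocyte markers had a promoter region, led by Apoa1, and their summed level was 803.9, 899.8 and 869.3 CPM in young and 1075, 1012, 1171 and 1108 CPM in aged samples. All aged sums were above all young ones, the median log2 fold change was 0.30 (0.056 with offsets fitted on mean abundance), and Apoa1 (0.53, adjusted p = 0.0331 from edgeR) and Ahsg (0.57, adjusted p = 0.0204) rose. Both were in decile 10, where 11.7% of regions were called higher, and 4.92% of gene promoters were. Both calls were lost without young replicate 1, young replicate 2, aged replicate 1 or aged replicate 3, and with offsets fitted on mean abundance (0 of 10 each), where few regions of the table were called. Apoa1 was also lost without young replicate 3, with aged replicates 3 and 4 summed and with at least 10 counts in every sample. Both were lost with aged replicates 1 and 3 summed. Of the 10, 4 were called higher with DESeq2 (11.5% of gene promoters) and 3 with limma voom (8.99%). Offsets fitted on GC content gave 5 (25.4%), and leaving out aged replicate 4 gave 4 (4.71%). Of 8 stellate cell markers 4 had a promoter region, led by Reln, and Des, Pdgfrb, Dcn and Rgs5 had none. Their sums were 31.7, 29.2 and 28.4 CPM in young and 25.1, 16.7, 18.0 and 21.5 CPM in aged samples, again without overlap but lower. Their median was -0.44, but -0.28 without aged replicate 2 and -0.096 with offsets fitted on mean abundance. Of 8 sinusoidal endothelial markers 5 had one, led by Stab2, with sums of 92.7, 90.4 and 86.2 CPM in young and 76.1, 70.2, 93.6 and 117.2 CPM in aged samples, while Stab1, Lyve1 and Pecam1 had none.

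Of 8 Kupffer cell and macrophage markers only Clec4f had a promoter region, at 2.22, 2.65 and 2.30 CPM in young and 1.41, 0.588, 2.80 and 1.53 CPM in aged samples. The defining macrophage genes Adgre1, Csf1r and Cd68 had no region there, as had none of the 10 lymphocyte markers (0 of 10) and none of the 6 neuron and muscle genes (0 of 6). With edgeR, DESeq2 and limma voom 0 markers of the stellate, endothelial and Kupffer lists passed in either direction with all samples and their usual scaling, and 1 stellate marker had an unadjusted p under 0.05, with a decrease. With total counts the stellate marker Reln was called lower (-0.76), as it was with aged replicates 1 and 4 summed and with the replicate block. The part of these marker levels in the results for the 9 genes was not tested.

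The gene promoters with the profile most like that of Cdkn1a over the 7 samples were those of Agpat3, Gadd45g, Gldc, Crip2 and B3gat3. Likeness was the Euclidean distance of log2 CPM centred on the mean of each region, and it was 0.31, 0.32, 0.33, 0.35 and 0.38 in that order, against a median of 0.96 over all gene promoters. The nearest, the promoter of Agpat3, is shared with Gm47992. Their log2 fold changes were 0.12 to 0.42 and none passed with edgeR (adjusted p from 0.184 to 0.765).

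Beyond 10 kb, the promoter of Trp53cor1 (lincRNA-p21), a noncoding RNA that p53 induces beside Cdkn1a, became more accessible. The region, on chromosome 17 from 29078195 to 29079367, lies 11609 bp upstream of Cdkn1a, just outside the distance used here, and was singled out after its values were seen. It held 13.4, 15.9 and 13.98 CPM in young samples and 23.8, 27.9, 21.2 and 23.5 CPM in aged samples. All aged samples were well above all young ones, which was not so at the Cdkn1a promoter in the same samples. Of gene promoters 23.2% had every aged sample above every young one, and the Trp53cor1 region was chosen by this same comparison. The means were 14.4 ± 1.31 CPM (SD, n = 3) and 24.1 ± 2.75 CPM (SD, n = 4), or 0.73 on the log2 scale (SE 0.15, adjusted p = 0.0182 from edgeR). The median of its decile of abundance was 0.076, and offsets fitted on mean abundance gave 0.69 (0.0396). The call was lost without young replicate 1 (0.0801), young replicate 2 (0.0526) or aged replicate 1 (0.0574), over a range of 0.00114 to 0.0801.

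Within 100 kb of the 9 genes, 87 further regions were tallied, from 0 at Cdkn2a and Cdkn2b to 29 at Gdf15. Of these 2 were called higher and 4 lower with edgeR, near the shares of all regions (2.44% and 3.30%). Besides Trp53cor1 they were 5 regions, also named after their values were seen. Those that fell were the promoter of Sox15 at 69655404 on chromosome 11, near Trp53 (log2 fold change -1.25, adjusted p = 0.0230), a region at 117729062 on chromosome 10, 18304 bp from Mdm2 (-1.10, 0.0201), a region at 29049365 on chromosome 17, 40739 bp from Cdkn1a (-0.94, 0.0261), and a region at 145008622 on chromosome 7, 68697 bp from Ccnd1 (-1.23, 0.0343). A region in Gng12 at 67013083 on chromosome 6, 19911 bp from Gadd45a, rose (0.41, 0.0479). In all 5 the ages did not overlap, but they were chosen by the same comparison. Of all regions 10.2% had every aged sample above every young one and 11.6% had every aged sample below. All 5 lost the call with offsets fitted on mean abundance (adjusted p from 0.0529 to 0.565) and without young replicate 1 (0.0899 to 0.121), young replicate 2 (0.0649 to 0.121), aged replicate 1 (0.0505 to 0.105) or aged replicate 3 (0.0637 to 0.110). The region near Ccnd1 was also lost without young replicate 3 (0.0511), and that in Gng12 with any single library left out (0.0602 to 0.121). With aged replicates summed, that in Gng12 was lost for all 6 pairs (0.0528 to 0.0875). With 1 and 3 summed Sox15 (0.0558) and the regions near Cdkn1a (0.0608) and Ccnd1 (0.0636) were lost too. Thinning the libraries ended the calls near Cdkn1a (0.0830) and in Gng12 (0.0632). In Gng12 so did total counts (0.112) and at least 10 counts in every sample (0.0875). The Sox15 promoter was not fitted with that minimum. Over all alternatives the adjusted p of these 5 regions ranged from 0.00243 to 0.565.

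Sequence motifs were searched on both strands of the 26 regions and of all regions. The p53 response element is a pair of 10-base parts with a spacer of up to 3 bases, and up to 2 mismatches in its 20 bases were allowed outside the core C and G of each part. It was found in 4 of the 26 regions (15.4%), against 5.98% of all regions, and in 0 of the 3 regions that fell. Those 4 were the upstream Mdm2 region, a downstream Gadd45a region, the Gdf15 promoter and the downstream Ccnd1 region (144928331 to 144928352), and in none of the 4 did accessibility pass the test. The other motifs, with letters N for any base, were the AP-1 site TGANTCA in 9 regions (25.1% of all regions), the E-box CACGTG in 6 (17.3%), the E2F site TTCCCGCC in 5 (3.84%, but 11.6% of gene promoter regions), the ATF4 with C/EBP site TGATGNAA in 5 (12.3%), the GC box GGGCGG in 13 (32.4%, but 79.8% of gene promoter regions) and CCAAT in 18 (65.3%). The regions near the genes are wider than most, with a median of 1004 bp against 869 bp, 9 of the 26 are promoters, and these shares were corrected for neither. Of the 5 regions with an E2F site 4 were promoters, and of the 13 with a GC box 8 were. The called upstream region of Ccnd1 held 3 E-boxes, 1 E2F site and 2 GC boxes. A match is a description of letters and not of binding.

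The p53 elements near Mdm2, Gadd45a and Gdf15 are shown to set the sequence of each beside its accessibility, and that near Ccnd1 is not shown. They are given on the plus strand of GRCm38, with the element in capitals and 5 bases either side in lower case. The first lies at chr10:117717731-117717760, in no exon, 6987 bp upstream of Mdm2, with 1 mismatch and overlapping a further match of 2 mismatches. The next, at chr6:67029009-67029039 and also in no exon, lies downstream of Gadd45a, with 2 mismatches and a spacer of 1 base in lower case. That in Gdf15, at chr8:70631961-70631990 in the untranslated part of an exon of that gene, has 1 mismatch.
Mdm2 upstream: tgcttGGACATGTTTGTACATGTTTcctcc
Gadd45a downstream: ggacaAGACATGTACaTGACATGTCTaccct
Gdf15 promoter: agaaaAGGCAAGTTCAGGCAAGTCAcccct

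Promoter sequences came from a set of 32851 RefSeq promoters (GRCm38), as the 250 bases before each start. In that set 10 promoters of 7 genes matched by symbol, and none stood under Ccnd1 or Lmnb1. A p53 element was in 1 of the 10, against 1.09% of the set. It stands 51 to 32 bases before the first start of Cdkn1a with 1 mismatch, in a window of which 0 of 250 bases lay in a region, 2505 bp from the nearest one. The accessible region of Cdkn1a covers the second promoter and not this window. The GC box was in 4 of 10 (32.7% of all promoters), CCAAT in 4 (33.8%) and the E-box in 1 (6.02%), while AP-1 (6.75%), E2F (1.86%) and ATF4 with C/EBP (3.45%) were in 0 of 10. Both Cdkn1a promoters and that of Gadd45a, the gene with the most accessible promoter per kb, are given 5′ to 3′ on the strand of the gene, with motifs in capitals. The first is chr17:29090729-29090978 on the plus strand, upstream of every exon of Cdkn1a except that of a start 3 bases earlier, with the p53 element in capitals. The second is chr17:29093519-29093768 on the plus strand, in an intron of the longer Cdkn1a transcripts and the exon of AC167363.2, with 2 GC boxes. That of Gadd45a is chr6:67037408-67037657 on the minus strand, with a GC box on the other strand and a CCAAT box.
Cdkn1a first promoter: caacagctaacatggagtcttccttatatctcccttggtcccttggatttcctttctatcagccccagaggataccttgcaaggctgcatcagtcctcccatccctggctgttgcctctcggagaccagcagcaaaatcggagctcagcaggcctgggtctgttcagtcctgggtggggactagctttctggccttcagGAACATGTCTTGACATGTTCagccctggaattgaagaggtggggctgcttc
Cdkn1a second promoter: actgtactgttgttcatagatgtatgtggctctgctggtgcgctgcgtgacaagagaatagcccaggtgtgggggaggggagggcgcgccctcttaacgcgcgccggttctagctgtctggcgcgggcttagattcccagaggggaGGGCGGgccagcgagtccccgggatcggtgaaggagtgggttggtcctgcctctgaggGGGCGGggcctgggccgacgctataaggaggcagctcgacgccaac
Gadd45a promoter: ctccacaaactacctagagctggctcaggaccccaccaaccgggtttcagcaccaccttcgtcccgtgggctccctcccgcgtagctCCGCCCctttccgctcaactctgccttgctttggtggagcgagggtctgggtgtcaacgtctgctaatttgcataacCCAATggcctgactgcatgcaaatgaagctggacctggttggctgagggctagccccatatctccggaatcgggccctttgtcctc

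The middle of the region of largest decrease is given too, as the 150 bases at chr10:117681289-117681438 on the plus strand, in the body of Cpm downstream of Mdm2, where none of the motifs searched was found. The whole region holds 1 AP-1 site and 1 CCAAT box.
Mdm2 downstream: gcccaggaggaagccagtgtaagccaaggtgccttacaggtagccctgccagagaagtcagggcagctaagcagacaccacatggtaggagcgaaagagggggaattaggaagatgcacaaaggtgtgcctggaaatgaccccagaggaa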

How the data were processed

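ATAC-seq libraries of 3 young and 4 aged liver samples were analysed from raw counts, which the authors deposited per region and library with no normalization. For this they trimmed reads (cutadapt 1.13), aligned them to GRCm38 (Bowtie2 2.4.1), removed duplicates, mitochondrial reads and reads with a mapping quality of 10 or less, called peaks (MACS2 2.2.7) and counted reads with featureCounts, keeping regions that had a peak in 2 or more libraries.

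Regions were placed (promoters within 200 bp of a TSS) with GENCODE M21 and bedtools 2.31.1, in Python 3.11.15 with numpy 2.4.6 and pandas 2.3.3. All 55680 regions were tested with the quasi-likelihood test of edgeR 4.0.16 in R 4.3.3 (TMM, age as the only factor, Benjamini-Hochberg adjustment, threshold 0.05), and log2 CPM used a prior count of 2. On simulated counts the procedure found 100% of changes of 2 on the log2 scale and 66% of changes of 1, and 9.29% of its calls were false. How many it finds in regions with few reads, such as that downstream of Mdm2, was not tested separately. The design text gives 3 animals for the aged samples. The study text counts 4 biological replicates and a supplementary legend counts 4 aged mice, so p-values measure the spread between samples. The 9 pairs of libraries of 1 age had 2.38 to 6.06 as their chi-square per degree of freedom, more than sampling noise gives. Regions named were each promoter, each region with an adjusted p under 0.05 or without overlap of the ages, and the most accessible region of each gene. Of the lists they were promoters that passed (at most 5 in each direction), or else the 2 smallest p-values, and 5 promoters most like Cdkn1a were added. Members and lists were chosen with earlier results of these data known. Of the lists of cell type markers, 1 is not reported here. Alternatives were DESeq2 1.42.0 and its size factors, limma voom 3.58.1, total counts, loess offsets (span 0.3) on mean abundance or GC content, filterByExpr, a minimum of 10 counts, thinning, each sample left out, each pair of aged samples summed, a replicate block, other thresholds (0.01 and 0.1), other distances (the gene body alone and 2 kb), promoters within 1000 bp and promoters of protein-coding transcripts. Sequence was read with samtools 1.23.1, near-identical copies (80% covered, 95% identity) were sought with minimap2 2.31, and figures were drawn with matplotlib 3.10.9.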

Additional observations from a re-analysis of the deposited data

Results flagged for a closer look

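At the Gadd45a promoter aged replicate 2 stood apart from the other aged samples, with a log2 CPM of 7.10 (136.9 CPM) against 6.87 to 6.89 (116.7 to 118.8 CPM). Its gap to the nearest sample was 0.891 of the range of the aged samples, above the 95% critical value of Dixon for 4 samples. Such gaps were looked for in 39 sets of aged values, among them 15 regions near the 9 genes, and chance gives them in about 1 in 20 sets. Groups of 3 were not tested.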

How the results depend on the processing

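Library totals ran from 4474652 to 25461110 reads, which limits the weakest regions, such as that downstream of Mdm2 with 1 to 6 reads in aged libraries. All log2 fold changes of the 9 promoters and of the 2 other called regions kept their direction, except those of Mdm2 (-0.12) and Gdf15 (-0.054) with offsets fitted on mean abundance. The aged mean of the Lmnb1 promoter was 97.4 CPM with total counts. The cause was not tested for any value given here, and settings that leave out samples or regions hold fewer of them by construction.

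In all samples 0 regions near the genes were called higher and 3 lower, with 3198 regions in all, 1 of the 9 promoters and 7 list genes. With the size factors of DESeq2 these were 1 higher, 2 promoters and 13 list genes, with DESeq2 3, 4 and 18, and with limma voom 2, 3 and 16. Offsets on mean abundance gave 1 lower, 846 in all, 0 promoters and 1 list gene. Offsets on GC content gave 6 higher, 7428 in all, 6 promoters and 38 list genes. With them the intronic Mdm2 region was lower too, beside the 3 called in all samples. Total counts gave 4 lower and 5 list genes, of which 3 were lower. At least 10 counts in every sample gave 1327 in all and 1 list gene. Thinning gave 2005 in all, and among the list genes Lbr was lost and Atf3 gained. An adjusted p under 0.01 gave 0 lower, 173 in all, 0 promoters and 0 list genes, and under 0.1 it gave 3 higher, 7131 in all, 4 promoters and 21 list genes. The gene body alone and a distance of 2 kb each gave 1 lower, and promoters of 1000 bp gave 0 promoters.

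Leaving out 1 sample gave 0 to 1 regions higher and 0 to 3 lower, 188 to 4230 regions in all, 0 to 2 promoters and 0 to 12 list genes. With aged replicates summed, 1 and 3 gave 962 in all and 0 list genes, 1 and 4 gave 2 list genes, 2 and 3 gave 1806 in all and 2 list genes, 2 and 4 gave 1 higher, 2 promoters and 16 list genes, and 3 and 4 gave 2 list genes.

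The replicate block gave 4078 regions in all and 4 list genes (E2f3, Tmpo, Perp and, lower, Cxcl2). Sesn1, Ddb2, Stk11, Lbr and Pcna lost their calls with it (adjusted p from 0.0680 to 0.111), the region in Gng12 lost its call (adjusted p = 0.0870), the hepatocyte marker Apoa1 lost its call while Serpina6 gained one, and the stellate marker Reln was called lower. The replicate block changed no call of the regions near the 9 genes. Replicate number 4 occurs only among the aged samples, so aged replicate 4 adds nothing to the age effect in that fit. Deviations of samples with the same number correlated at -0.12, 0.056 and 0.030, and young replicate 1 correlated best with aged replicate 4 (0.23). The labels do not say whether the numbers pair the samples, and correlations from so few samples cannot decide it.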
